A study of Mus musculus with 8 samples.

Results

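The genes described here are 10 members of the AP-1 and immediate early response: Fos, Fosb, Fosl1, Fosl2, Jun, Junb, Jund, Atf3, Egr1 and Ier2. They were taken by gene symbol from a table of 55487 genes, with earlier results of these data known, and all 10 passed the filter on low counts that left 18648 genes for testing. The values are bulk RNA-seq levels in 4 mouse lines of lung squamous carcinoma (LUSC), established from engineered mouse models, each sequenced as 2 libraries. The lines are PL1 and PL12, called the PL lines, and PLA and PLA4, called the PLA lines. The study asks what changes when the scavenging chemokine receptor ACKR3 is lost. Its labels explain neither the letters nor the alleles behind them, name no treatment, time or passage, and do not say whether a line is 1 clone. Whether replicates of a line are separate cultures is not stated either, so the p-values reflect only how far these libraries scatter, possibly for technical reasons.

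AP-1 is a dimeric transcription factor built from leucine zipper proteins of the Fos and Jun families, with ATF members as further partners. Jun proteins can pair with each other, whereas Fos proteins need a Jun partner to bind DNA, so the mixture of subunits sets which dimers can form. Several of these genes are immediate early genes: growth factors, serum and stress switch on their transcription within minutes through kinases and factors already in the cell, and their mRNAs decay fast. In squamous epithelia AP-1 takes part in proliferation, invasion and terminal differentiation.

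Levels are given as CPM (counts relative to TMM-adjusted library totals) to compare libraries, and as TPM (transcript abundance, which allows for gene length) to compare genes. The 8 libraries held 48857960 to 142458281 counts, so that 3 counts, taken as the floor, equal 0.0614 CPM in the shallowest and 0.0211 CPM in the deepest library. Floors cover counting error only. Ackr3 was at 25.3 to 86.3 CPM in the PL libraries and at most 0.387 CPM in the PLA libraries. All 7 squamous and basal markers searched were detected in every library, at a summed level of 9668 to 19710 CPM in PL1, PLA and PLA4 and of 2095 and 2162 CPM in PL12. Replicates of PL12 and PLA had correlations of 0.997 and 0.999 on log2(CPM + 1) across genes, and those of PL1 and PLA4 stood further apart, at 0.978 and 0.974. In bulk RNA, fewer cells of a type and less RNA per cell cannot be told apart.

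The 2 libraries of PL1, and those of PLA4, differed in cell type markers too. In PL1, 7 fibroblast markers summed to 3.08 CPM in replicate 1 and 282 CPM in replicate 2, against 0.753 to 10.4 CPM in the 3 other lines. A count above 0 was seen for 4 of them in replicate 1 and for all 7 in replicate 2. Most of the rise was Col1a1, at 0.575 and 254 CPM, and Pdgfra was at 2.47 and 4.70 CPM. In replicate 2 Dcn was at 10.7 CPM, Col3a1 at 8.48 CPM and Pdgfrb at 4.29 CPM. Col1a2 reached only 0.176 CPM there, and Lum was at 0.0176 CPM, under that library's floor of 0.028 CPM. In PLA4, 5 epithelial markers summed to 3159 CPM in replicate 1 and 923 CPM in replicate 2. Krt8 was at 1686 and 56.2 CPM, Krt18 at 406 and 17.4 CPM and Krt19 at 78.2 and 0.928 CPM. Epcam was at 259 and 146 CPM, and Cdh1 was nearly level at 730 and 703 CPM. The 5 markers summed to 1283 and 1049 CPM in PL1, 7416 and 8102 CPM in PL12 and 4129 and 4035 CPM in PLA. Krt19 was low in PL1 too, at 0.357 and 0.917 CPM. Whether each PL1 and PLA4 library holds only the line it is labelled as was not tested, and every PL1 or PLA4 mean below joins libraries that differ in this way. The 10 immune markers summed to 5.52 to 26.0 CPM outside PLA and to 84.1 and 79.7 CPM in PLA. Cd3e was at 0 everywhere and Ptprc at no more than 0.0264 CPM, while Itgam made up 51.5 and 48.1 CPM in PLA. Alveolar and adenocarcinoma markers reached 8.96 and 8.74 CPM in PL12, nearly all Nkx2-1, and at most 0.263 CPM elsewhere. Endothelial markers summed to 0.395 to 2.65 CPM. The part of these markers in the results that follow was not tested.

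The regions just upstream of 4 start sites are shown for members with the patterns described here: Fos and Fosb, low in both PLA4 libraries, Jun, high in PLA, and Atf3, with a wide gap between the PL1 libraries. They were picked among the 7 of 10 members matched to a RefSeq promoter (GRCm38.p6), and each line holds the 120 bases before the start, 5′ to 3′ on the gene's strand. Capitals mark a CRE half-site (TGACG, or CGTCA on the other strand) in Fos, Fosb and Atf3 and an ATF/AP-1 site of the form TGACNTCA in Jun. The regions are chr12:85473770-85473889 on the plus strand for Fos, chr7:19310046-19310165 on the minus strand for Fosb, chr4:95052223-95052342 on the minus strand for Jun and chr1:191183334-191183453 on the minus strand for Atf3.
Fos: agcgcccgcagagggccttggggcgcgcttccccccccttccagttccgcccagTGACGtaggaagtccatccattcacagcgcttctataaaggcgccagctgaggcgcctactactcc
Fosb: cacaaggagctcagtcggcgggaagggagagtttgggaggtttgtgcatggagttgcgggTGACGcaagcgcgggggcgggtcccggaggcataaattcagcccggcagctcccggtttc
Jun: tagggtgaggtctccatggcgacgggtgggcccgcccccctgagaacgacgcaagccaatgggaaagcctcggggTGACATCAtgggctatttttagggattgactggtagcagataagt
Atf3: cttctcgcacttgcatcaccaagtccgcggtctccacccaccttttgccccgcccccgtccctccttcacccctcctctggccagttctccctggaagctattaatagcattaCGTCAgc

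Counted from the start site, the capitals lie at -66 to -62 in Fos, -60 to -56 in Fosb, -45 to -38 in Jun and -7 to -3 in Atf3. The RefSeq start used for Atf3 lies 34706 bases inside the longer GENCODE gene. Both strands of the 250 bases before the start were searched for the AP-1 site TGANTCA, for the 2 motifs marked above and for the CArG box, the element bound by serum response factor. TGACG is part of TGACNTCA when N is G. Over 32851 promoters, 6.75% held TGANTCA, 7.49% TGACNTCA, 17.8% TGACG and 1.47% a CArG box. Fos held a further TGACG at -129 to -125 and Junb held one at -106 to -102. No member matched to a promoter held TGANTCA or a CArG box in this window, and Fosl2 and Jund held none of the 4 motifs there. The RefSeq start used lies 671 bases from the GENCODE start for Fosl2 and 1210 bases from it for Jund. The bases before those GENCODE starts were not searched. A match is a description of letters, not of binding.

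The lines differed in most members, as they did in most of the genes tested. By the median, most of the spread lay between lines rather than between the libraries of a line, again as over all genes. An F test of any difference among the 4 lines in edgeR's quasi-likelihood model, adjusted over 18648 genes by Benjamini-Hochberg, passed 0.05 for 7 of the 10 members: Fos, Fosb, Fosl1, Fosl2, Jun, Junb and Ier2. It passed for 52.9% of all genes (9866). Atf3 (adjusted p = 0.0632), Egr1 (adjusted p = 0.087) and Jund (adjusted p = 0.153) missed it in that edgeR test, and these are the 3 members whose libraries within 1 line stood further apart than the line means did. Such an excess was present in 21% of all genes. Differences between lines took a median of 91.4% of the sum of squares of log2 values over the members and 85.2% over all genes tested. The median fold range of line means was 2.27 on the log2 scale over the members against 1.08 over all genes, and the median widest gap within a line was 1.05 against 0.575. The fit takes 1 spread per gene from all 4 lines, although replicates of PL1 and PLA4 stood further apart than those of PL12 and PLA. The SE and p-value of any pair of lines below therefore also reflect library gaps in the lines outside that pair.

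**Figure D1:**
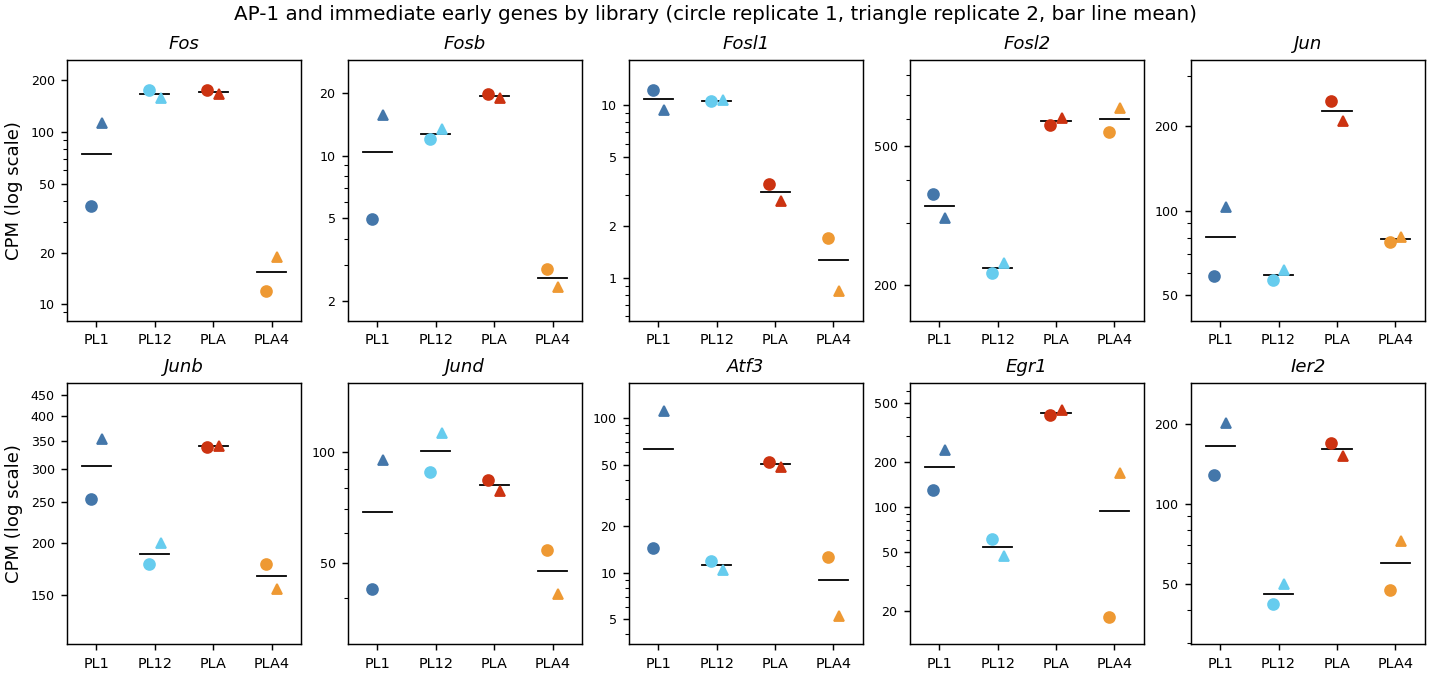
CPM (log axis) of each of the 10 genes in the 8 libraries, by line, with circles for replicate 1, triangles for replicate 2 and a bar at the line mean. The Fosl2 libraries of PLA and PLA4 all sit above those of PL1 and PL12, and the Fosl1 libraries all sit below them, while Atf3 in PL1 and Egr1 in PLA4 show libraries far apart.

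**Figure D2:**
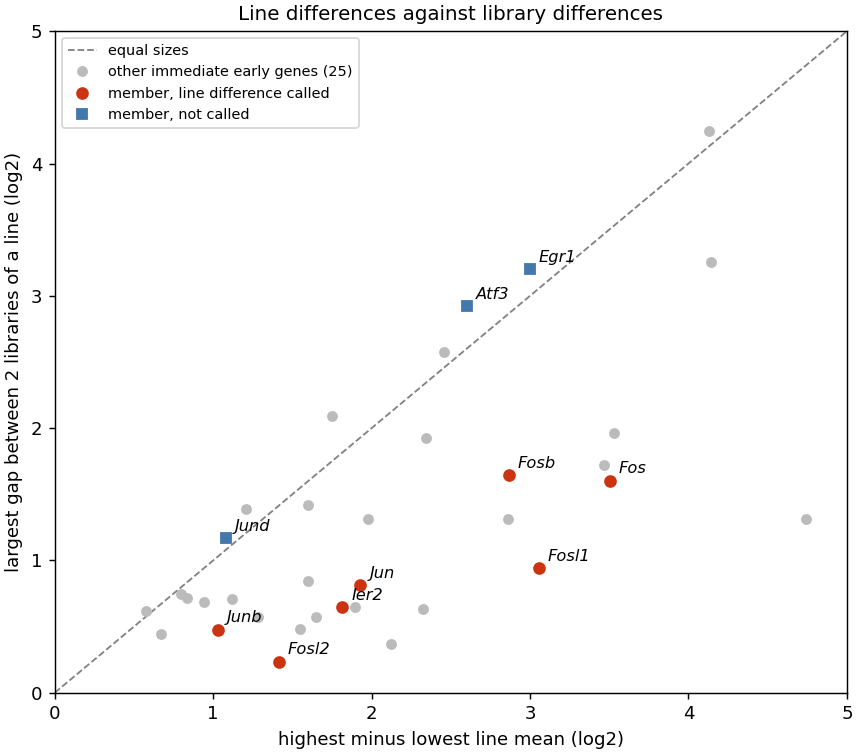
Highest minus lowest line mean (horizontal, log2) against the largest gap between the 2 libraries of a line (vertical, log2), with the 10 members in red (line difference called) or blue squares (not called), 25 other immediate early genes in grey and a dashed line of equal sizes. Jund, Atf3 and Egr1 lie above that line, and Fos has the widest range of line means among the members, which is 11.3-fold on a linear scale, with a largest gap of 3.04-fold.

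Among the Fos family, Fosl1 and Fosl2 separated the PLA from the PL lines, in opposite directions. Fosl2 (Fra-2), which lacks the strong activation domain of Fos and lasts longer than Fos after stimulation, lies on GRCm38 chromosome 5, 32135801 to 32157842. It was at 365 and 310.1 CPM in PL1, 216 and 231 CPM in PL12, 576 and 605 CPM in PLA and 550.4 and 644 CPM in PLA4. Every PLA and PLA4 library was above every PL library, and the gap within a line was at most 1.18-fold. Fosl2 was higher in PLA than in PL1 (log2 fold change 0.81 ± 0.153, SE, adjusted p = 0.013) and than in PL12 (1.40 ± 0.155, adjusted p = 0.00158) by edgeR. It was likewise higher in PLA4 than in PL1 (0.82 ± 0.153, adjusted p = 0.0304) and than in PL12 (1.42 ± 0.155, adjusted p = 0.00173). PLA4 and PLA differed by 0.02 ± 0.152 (adjusted p = 0.948), and PL12 was lower than PL1 (-0.59 ± 0.153, adjusted p = 0.0362), by edgeR. For Fosl2, PLA4 against PL1 and PL12 against PL1 each passed in 9 of 15 alternative settings.

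Fosl1 (Fra-1), a Fos family member tied to invasion in many carcinomas, lies on chromosome 19, 5447547 to 5455946. It was at 12.3 and 9.35 CPM in PL1, 10.5 and 10.7 CPM in PL12, 3.49 and 2.80 CPM in PLA and 1.70 and 0.838 CPM in PLA4. The order was PL1, PL12, PLA, PLA4. PL12 against PL1 did not pass (-0.03 ± 0.359, adjusted p = 0.963, edgeR), and the groups of PL and PLA libraries did not overlap. Fosl1 was lower in PLA than in PL1 (-1.78 ± 0.37, adjusted p = 0.0171) and PL12 (-1.75 ± 0.37, adjusted p = 0.0129), and lower in PLA4 than in PL1 (-3.09 ± 0.39, adjusted p = 0.0123) and PL12 (-3.06 ± 0.39, adjusted p = 0.00273), by edgeR. PLA4 was also lower than PLA (-1.31 ± 0.368, adjusted p = 0.0406, edgeR), which passed in 9 of 15 alternative settings. The 3′ part of Fosl1 overlaps Ccdc85b on the other strand, which was at 9.95 to 32.5 CPM, and no source used here says whether counting used strand, so reads of the pair may not be separable.

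Across the families, 2 of the 10 members passed in all 4 comparisons of a PLA with a PL line in the same direction, Fosl2 higher and Fosl1 lower. Over all genes this held for 1.99% (372), with 1.23% higher and 0.767% lower. The 4 comparisons share lines, and the Fosl1 result was known before the members were chosen. Every PLA and PLA4 library lay above or below every PL library in 2 of 10 members and in 15.7% of all genes. As means of lines, Fosl2 was at 594 ± 4.92 CPM for PLA and PLA4 and at 281 ± 80.6 CPM for PL1 and PL12 (SD over 2 lines), 2.12-fold higher in the former. Fosl1 was at 2.21 ± 1.33 CPM and 10.7 ± 0.156 CPM in the same order (SD over 2 lines), 4.85-fold lower in the former.

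With the line as the unit, the 2 libraries of each line were summed and 2 PLA lines were tested against 2 PL lines. No member was called by edgeR, and neither was any of 18859 genes (0%), while an unadjusted p under 0.05 was reached by 2 members and by 4.6% of all genes (867). Those members were Fosl1 (-2.26 ± 0.695) and Fosl2 (1.09 ± 0.334), both with adjusted p = 0.852 by edgeR. DESeq2 on the summed counts called 0 members. In the fit of single libraries, leaving out any 1 library of PL12 or PLA left 0 members called in all 4 comparisons. Without replicate 1 of PL1 only Fosl2 was called, and without replicate 2 of PL1 only Fosl1. Leaving out either PLA4 library left both called.

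Fos, the founding Fos family gene and a classical serum-response gene, lies on chromosome 12, 85473890 to 85477273. It was at 37.1 and 113 CPM in PL1, 176 and 158 CPM in PL12, 176 and 166 CPM in PLA and 11.9 and 18.7 CPM in PLA4. Both PLA4 libraries were below all 6 others. PLA against PL12 did not pass (0.03 ± 0.484, adjusted p = 0.968, edgeR), and PL1 lay between, with its libraries 3.04-fold apart. That gap enters the SE of every pair of lines, while the Fos libraries were 1.12-fold apart in PL12 and 1.06-fold in PLA. Fos was 11.1-fold lower in PLA4 than in PLA (log2 fold change -3.48 ± 0.534, adjusted p = 0.00631), 10.9-fold lower than in PL12 (-3.44 ± 0.533, adjusted p = 0.005) and 4.90-fold lower than in PL1 (-2.29 ± 0.508, adjusted p = 0.0453), by edgeR. The last of these passed in only 6 of 15 alternative settings, where it ran from -3.23 to -0.99, and the other 2 passed in all 15. The PLA lines therefore held the lowest Fos level and, level with PL12, the highest.

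Fosb, the fourth Fos gene, lies on chromosome 7, 19302696 to 19310051, and had the lowest level per length of the 10 in 6 of the 8 libraries, at 0.970 to 8.33 TPM. It was at 4.98 and 15.8 CPM in PL1, 12.1 and 13.5 CPM in PL12, 19.9 and 19.0 CPM in PLA and 2.85 and 2.33 CPM in PLA4. As for Fos, both PLA4 libraries were below all 6 others and the PL1 libraries were far apart. PLA4 was lower than PLA (-2.91 ± 0.518, adjusted p = 0.01) and PL12 (-2.30 ± 0.506, adjusted p = 0.0155), and missed the threshold against PL1 (4.01-fold lower, adjusted p = 0.0603) by edgeR. PLA and PL12 differed by 0.61 ± 0.483 (adjusted p = 0.357). Without any 1 library of PL12, PLA or PLA4, the adjusted p of the edgeR F test of Fosb was 0.058 to 0.0792.

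Of the Jun family, Jun was highest in both PLA libraries, while Junb was high in PLA and PL1 alike. Jun, the activating Jun protein whose own promoter is an AP-1 target, lies in 1 exon on chromosome 4, 95049034 to 95052222. It was at 58.4 and 103 CPM in PL1, 56.8 and 61.5 CPM in PL12, 245 and 208 CPM in PLA and 77.6 and 80.9 CPM in PLA4. Both PLA libraries were above all 6 others, whose values overlapped between PL1 and the other 2 lines. PLA was higher than PL1 (1.49 ± 0.261, adjusted p = 0.0101) and PL12 (1.94 ± 0.265, adjusted p = 0.003), and PLA4 was lower than PLA (-1.51 ± 0.261, adjusted p = 0.00911) by edgeR. The 3 lower lines did not pass against each other, with PLA4 and PL1 at -0.02 ± 0.256 (adjusted p = 0.969). The antisense gene Junos, which overlaps Jun, was at 1.20 and 0.906 CPM in PLA and at 0.0921 to 0.388 CPM elsewhere. Reads of Junos and Jun may not be separable, as for Fosl1 and Ccdc85b.

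Junb, which can oppose Jun in proliferation and also supports epidermal differentiation, lies on chromosome 8, 84974484 to 84978718. It had the highest TPM of the 10 genes in 7 of the 8 libraries, between 141 and 333 TPM in all. It was at 254 and 354 CPM in PL1, 178 and 199 CPM in PL12, 339 and 340.1 CPM in PLA and 178 and 156 CPM in PLA4. The PL1 and PLA libraries were all above those of PL12 and PLA4. PL12 was lower than PL1 (-0.69 ± 0.185, adjusted p = 0.0411), PLA was higher than PL12 (0.85 ± 0.186, adjusted p = 0.0145), and PLA4 was lower than PL1 (-0.87 ± 0.186, adjusted p = 0.0416) and PLA (-1.02 ± 0.186, adjusted p = 0.0107), by edgeR. Of these, PLA4 against PL1 passed in 7 of 15 alternative settings and PL12 against PL1 in 9 of 15. PLA and PL1 differed by 0.16 ± 0.184 (adjusted p = 0.548) and PLA4 and PL12 by -0.18 ± 0.185 (adjusted p = 0.487). Without either PLA library the F test of Junb gave adjusted p = 0.0634 and 0.0635. The end of Junb overlaps Prdx2 on the other strand, which was at 196 to 255 CPM in all libraries, and the same limit on separating reads holds.

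Jund, the Jun family gene that is broadly expressed and least dependent on stimulation, lies in 1 exon on chromosome 8, 70698949 to 70700616. It was at 42.3 and 94.9 CPM in PL1, 88.4 and 113 CPM in PL12, 83.9 and 78.4 CPM in PLA and 54.0 and 41.1 CPM in PLA4. The PL1 libraries lay on both sides of the PLA libraries, 2.24-fold apart, and no pair of lines passed. The largest difference, PLA4 against PL12, was -1.08 ± 0.37 (adjusted p = 0.0626, edgeR). Without replicate 1 or replicate 2 of PL1 the F test of Jund passed (adjusted p = 0.0213 and 0.0141), with the gap within PL1 removed and the spread taken from the other lines alone.

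Atf3, a stress-induced ATF family member that can repress transcription, lies on chromosome 1, 191170296 to 191218039. It was at 14.5 and 111 CPM in PL1, 11.9 and 10.4 CPM in PL12, 51.6 and 48.6 CPM in PLA and 12.7 and 5.25 CPM in PLA4. The PL1 libraries, 7.57-fold apart, held the highest value of all and one close to PL12 and PLA4. PL12 and PLA4 overlapped, and both PLA libraries were above both. No pair of lines passed by edgeR. Leaving out either PL1 library removes that gap, so that the spread comes from the other lines alone. The F test then passed without replicate 1 (adjusted p = 0.00526) or replicate 2 (adjusted p = 0.0132), which is no sign of stability since PL1 then stands at 111 or at 14.5 CPM.

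Egr1, a zinc finger factor induced through serum response elements and not part of AP-1, lies on chromosome 18, 34859823 to 34864984. It was at 129 and 242 CPM in PL1, 60.8 and 46.9 CPM in PL12, 412 and 444 CPM in PLA and 18.3 and 169 CPM in PLA4. Both PLA libraries were above all others, and the PLA4 libraries, 9.19-fold apart, lay below PL12 and within PL1. The 1 pair of lines that passed was PLA against PL12 (2.99 ± 0.939, adjusted p = 0.0468, edgeR), and it passed in 8 of 15 alternative settings. Without replicate 1 or replicate 2 of PLA4 the F test of Egr1 passed (adjusted p = 0.00495 and 0.00227). PLA4 then stands at 169 or at 18.3 CPM, and the spread comes from the other lines alone.

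Ier2, a nuclear immediate early protein outside the leucine zipper families, lies in 1 exon on chromosome 8, 84661331 to 84662852. It was at 128 and 202 CPM in PL1, 41.9 and 49.9 CPM in PL12, 169 and 151 CPM in PLA and 47.3 and 72.7 CPM in PLA4. As for Junb, the PL1 and PLA libraries were all above those of PL12 and PLA4. PL12 was lower than PL1 (-1.85 ± 0.289, adjusted p = 0.00828), PLA was higher than PL12 (1.80 ± 0.288, adjusted p = 0.00499), and PLA4 was lower than PL1 (-1.46 ± 0.285, adjusted p = 0.0343) and PLA (-1.41 ± 0.285, adjusted p = 0.0145), by edgeR. Of these, PLA4 against PL1 passed in 9 of 15 alternative settings. PLA and PL1 differed by -0.05 ± 0.279 (adjusted p = 0.919) and PLA4 and PL12 by 0.39 ± 0.28 (adjusted p = 0.318).

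Counted by pair of lines, which share libraries with one another, the members moved in different sets. Within the PLA family, PLA4 against PLA called 6 members, all lower in PLA4 (Fos, Fosb, Fosl1, Jun, Junb and Ier2), against 29% of all genes in either direction, 14.9% lower and 14.1% higher. Within the PL family, PL12 against PL1 called 3, all lower in PL12 (Fosl2, Junb and Ier2), against 23.7% of all genes, 12.5% lower and 11.2% higher. PLA against PL12 called 6, with Fosl2, Jun, Junb, Egr1 and Ier2 higher and Fosl1 lower, against 37.7% of all genes, 20.4% higher and 17.3% lower.

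In the 3 other comparisons across families, Fosl2 was the only member called higher in PLA4. PLA against PL1 called 3, with Fosl2 and Jun higher and Fosl1 lower, against 27.3% of all genes, 14.4% higher and 13% lower. PLA4 against PL1 called 5, with Fosl2 higher and Fos, Fosl1, Junb and Ier2 lower, against 8.54% of all genes, 4.61% higher and 3.93% lower. PLA4 against PL12 called 4, with Fosl2 higher and Fos, Fosb and Fosl1 lower, against 36% of all genes, 19.2% higher and 16.8% lower. These counts moved with single libraries: without replicate 1 or replicate 2 of PLA, PLA4 against PLA called 1 member and PLA against PL1 called 0, and without replicate 1 or replicate 2 of PL12, PL12 against PL1 and PLA4 against PL1 called 0. PLA against PL12 called 2 without replicate 1 of PL12 and 3 without replicate 2 of PL12 or either PLA library. PLA4 against PL1 called 1 without replicate 2 of PL1 and 8 without replicate 1 of PL1.

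**Figure D3:**
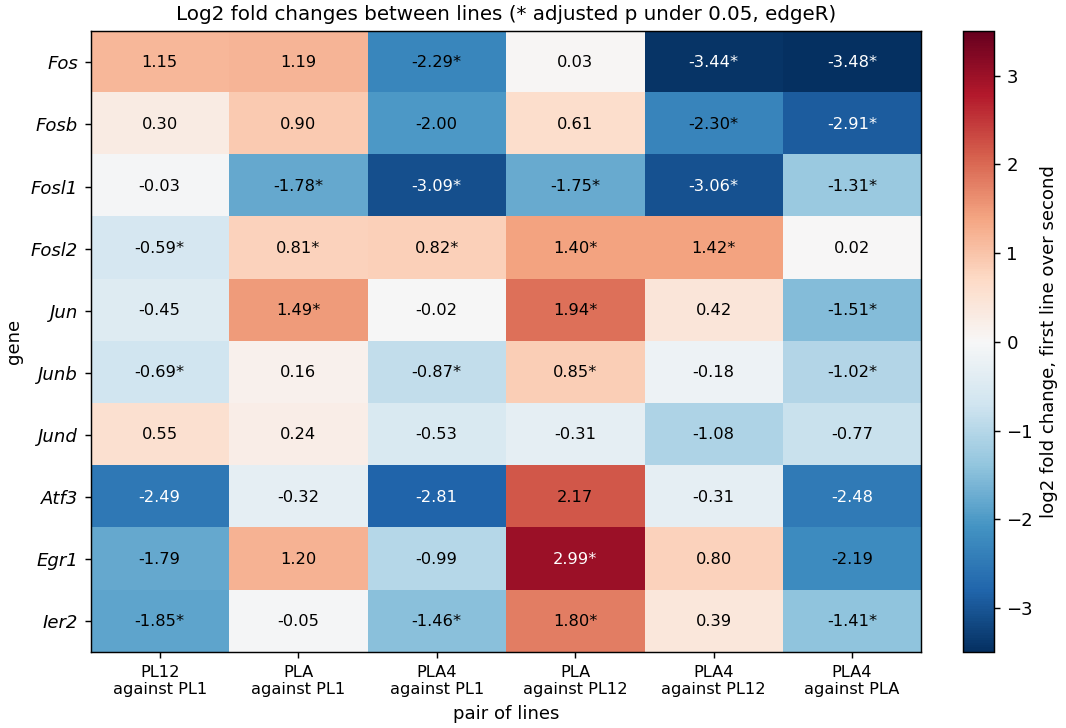
Heat map of the log2 fold change (first line over second; red higher, blue lower) of the 10 genes (rows) in the 6 pairs of lines (columns), from edgeR on single libraries, with a star where adjusted p was under 0.05. Fosl2 is above 0 and Fosl1 below 0 in the 4 comparisons of a PLA with a PL line, and all 6 starred values in PLA4 against PLA are below 0.

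Differences between the 2 libraries of a line are values without a test. In PL1, 4 of 10 members were over 2-fold apart, all higher in replicate 2: Atf3 7.57-fold, Fosb 3.12-fold, Fos 3.04-fold and Jund 2.24-fold. Over all genes 13.4% were past 2-fold in PL1, 9.39% higher and 4.02% lower in replicate 2. Fosl1 (1.31-fold) and Fosl2 (1.18-fold) were lower in replicate 2 of PL1, and the other 8 were higher. The same library held the fibroblast markers given above and 9668 CPM of squamous markers against 19100 CPM in replicate 1, and their part in the difference was not tested.

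In PLA4, 2 members were over 2-fold apart, Egr1 9.19-fold higher and Atf3 2.39-fold lower in replicate 2, against 14.6% of all genes, 5.16% higher and 9.48% lower. Fos (1.57-fold) and Ier2 (1.54-fold) were higher in that library and Fosl1 (1.92-fold) lower. The replicate with more Egr1 was the one with less Krt8, and the part of the latter was not tested. No member was past 2-fold in PL12, where 2.82% of all genes were (2.23% higher and 0.59% lower), or in PLA, where 0.611% were (0.306% in each direction).

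**Figure D4:**
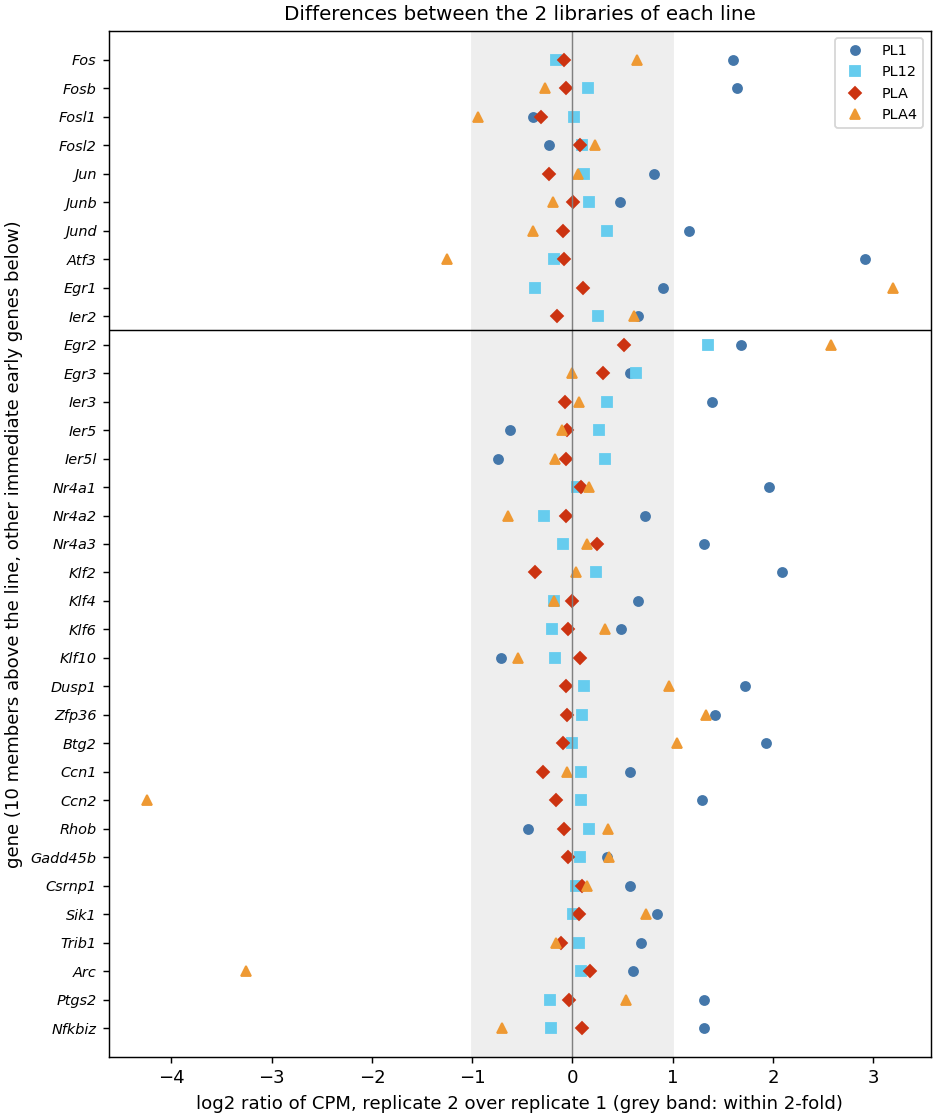
Log2 ratio of CPM, replicate 2 over replicate 1, in each line (colour and shape) for the 10 members (above the black line) and 25 other immediate early genes (below it), with a grey band for values within 2-fold. Of the members, 8 of 10 lie above 0 in PL1, in PLA4 Egr1 stands at 3.20 and Atf3 at -1.25, and in PL12 and PLA all 10 lie between -0.38 and 0.35.

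Per length, the leading Fos family gene was not the same in all lines. Fosl2 took 90.5% and 89.6% of the summed TPM of Fos, Fosb, Fosl1 and Fosl2 in PLA4, 46.6% and 49.4% in PLA, 23.3% and 26.0% in PL12 and 65.8% and 40.2% in PL1. Fos took 7.29% and 8.85% in PLA4, 48.9% and 46.6% in PLA, 69.2% and 63.5% in PL12 and 22.2% and 50.3% in PL1. Fosl2 was thus the main Fos family transcript in PLA4 and Fos in PL12, while in PL1 and PLA the leading gene differed between the libraries. Fosl1 took 5.08% to 10.4% in the PL and 0.965% to 1.62% in the PLA libraries. Its TPM differed between the PL12 libraries (10.1 and 15.5 TPM) although its CPM did not (10.5 and 10.7 CPM). The family summed to 126 and 188 TPM in PL1, 198 and 200.1 TPM in PL12, 289 and 289 TPM in PLA and 141 and 168 TPM in PLA4.

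Junb was the leading Jun family transcript in all 8 libraries. It took 76.5% and 68.9% in PL1, 58.2% and 56.0% in PL12, 60.2% and 63.2% in PLA and 63.7% in each PLA4 library. Jun took 9.55% and 10.8% in PL1, 9.83% and 9.38% in PL12, 23.5% and 20.8% in PLA and 15.1% and 17.9% in PLA4. Its share was thus higher in each PLA and PLA4 library than in each PL library. In CPM, Jun itself overlapped between the PLA and PL libraries, as did Junb and Jund, whose levels also enter this share. Of all genes, 15.7% had CPM values that did not overlap between these libraries. Jund took 31.9% and 34.6% in PL12 and 13.9% to 21.2% elsewhere. In exact permutation tests of line differences over 105 arrangements of the libraries, which can give no p under 0.00952, the shares of Fos (p = 0.0286), Fosl2 (p = 0.0286), Jun (p = 0.019) and Junb (p = 0.00952) each had an adjusted p of 0.05 over the 7 shares. Those of Fosl1 (adjusted p = 0.0666), Jund (adjusted p = 0.0889) and Fosb (adjusted p = 0.162) were higher in the same exact test. No share had an adjusted p under 0.05, so none passed.

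**Figure D5:**
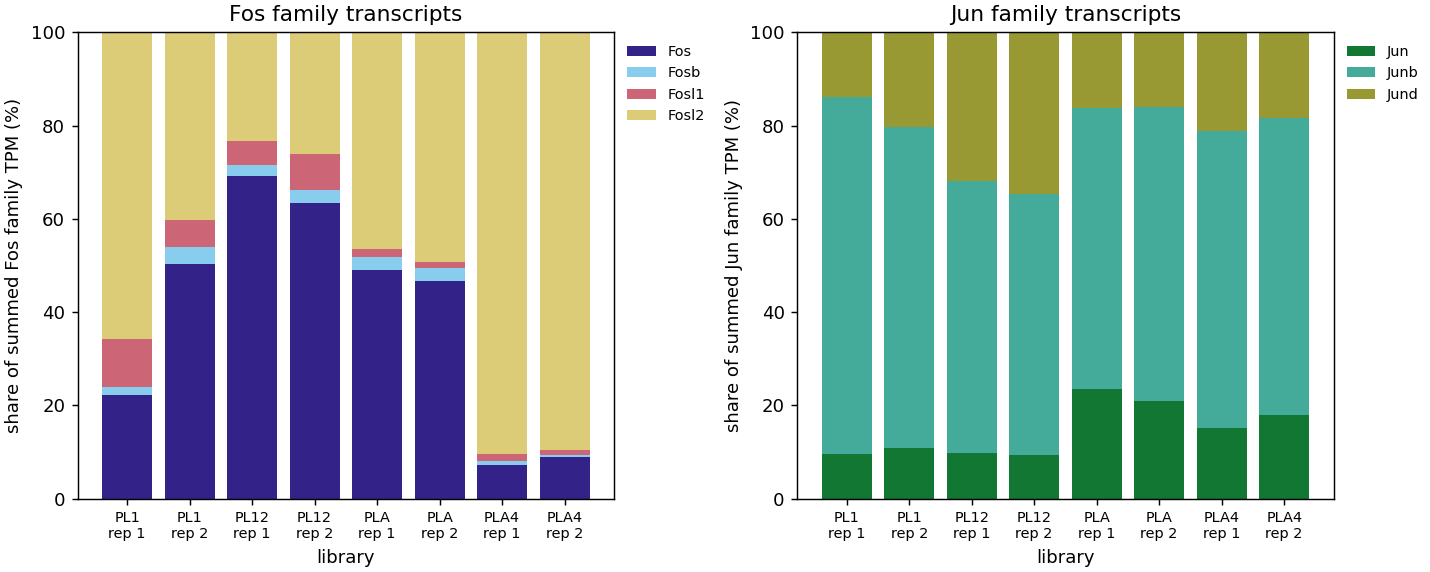
Stacked bars of the share (%) of each gene in the summed TPM of the Fos family and of the Jun family, in each of the 8 libraries. Fosl2 fills about 90% of the Fos family in PLA4, Fos is the largest part in PL12, and Junb is the largest part of the Jun family throughout.

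The members most like each other over the 8 libraries, by root mean square difference of centred log2(CPM + 1), were Junb and Ier2 (0.479), followed by Jun and Junb (0.537), Junb and Jund (0.538) and Fos and Fosb (0.572). The least alike were Fosl1 and Egr1 (1.88) and Fos and Fosl2 (1.81). Among 10090 other genes, those nearest to a member were Klhdc1 (0.0841) and Pcnx (0.112) for Fosl2, Aars (0.099) and Cep85 (0.129) for Junb, Sqor (0.135) and Gtpbp2 (0.169) for Jun, and Tmem98 (0.139) and Eva1c (0.17) for Jund. Fosb lay nearest to Mthfd2 (0.209) and Aldh18a1 (0.249), Ier2 to Ccnd2 (0.279) and Def6 (0.298), Fosl1 to Plod2 (0.345) and Isyna1 (0.358), and Fos to C3 (0.356) and Rgl3 (0.372). Atf3 (Sat1, 0.43, and Il1f9, 0.453) and Egr1 (Fads1, 0.701, and Ccnd2, 0.723) had no gene as close. These distances describe 8 libraries of 4 lines and carry no test.

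Other leucine zipper partners of AP-1 differed among lines in 8 of 11 genes by the F test, which called 52.9% of all genes. Maf, a large Maf factor, was at 48.4 and 20.9 CPM in PL1, 2.13 and 1.93 CPM in PL12, 33.3 and 33.7 CPM in PLA and 49.2 and 63.3 CPM in PLA4 (adjusted p = 0.0022, edgeR), lowest in both PL12 libraries. Jdp2, a repressor that dimerises with Jun, was at 13.0 and 25.6 CPM in PL1, 88.7 and 94.5 CPM in PL12, 141 and 136 CPM in PLA and 38.7 and 21.5 CPM in PLA4 (adjusted p = 0.00495, edgeR), highest in PLA. Mafk, a small Maf factor, was highest in PLA too, at 145 and 146 CPM against 27.3 to 61.8 CPM in the other lines. Batf3 was lowest in PL12, at 0.102 and 0.110 CPM, and at 0.575 to 2.29 CPM elsewhere.

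Of 26 other immediate early genes, 25 were tested, and 16 differed among lines, against 52.9% of all genes. In PLA4 against PLA, 11 of the 25 were lower and 0 higher, against 14.9% lower and 14.1% higher over all genes. They include Nr4a1, Klf4, Dusp1, Btg2, Gadd45b and Ptgs2. Ptgs2, the inducible cyclooxygenase, was at 212 and 526 CPM in PL1, 1036 and 890 CPM in PL12, 215 and 210 CPM in PLA and 29.7 and 42.9 CPM in PLA4 (adjusted p = 0.00264, edgeR), highest in PL12 and lowest in PLA4. Gadd45b, a stress-response gene, was at 21.9 and 27.8 CPM in PL1, 99.2 and 105 CPM in PL12, 109 and 106 CPM in PLA and 45.2 and 58.4 CPM in PLA4 (adjusted p = 0.00136, edgeR). Klf4 was highest in PLA (105 CPM in both libraries) and Klf6 in PL12 (679 and 590 CPM).

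Between the PL1 libraries, 11 of the 25 other immediate early genes were over 2-fold higher in replicate 2 and 0 lower, against 9.39% and 4.02% of all genes. That library is the one with 282 CPM of fibroblast markers, mostly Col1a1, whose part was not tested. Between the PLA4 libraries, Egr2, Zfp36 and Btg2 of the 25 were over 2-fold higher in replicate 2 and Ccn2 and Arc over 2-fold lower. Over all genes 5.16% were higher and 9.48% lower. Egr2 was the 1 gene of this list past 2-fold in PL12, and there was none in PLA, against 2.82% and 0.611% of all genes. Egr2 was near the floor, at 0.0155 and 0.588 CPM in PLA4 and at 0 and 0.156 CPM in PL12, so its ratios rest on few counts.

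Of 17 genes that feed the immediate early response (serum response factor with its partners, MAP kinases, RSK and MSK kinases, Creb1), 9 differed among lines, a share equal to the 52.9% of all genes. The median range of their line means was 0.57 on the log2 scale, against 1.08 over all genes. None was over 2-fold apart between libraries of any line. Elk4, an ETS partner of serum response factor, was at 76.3 and 77.7 CPM in PL1, 25.9 and 27.0 CPM in PL12, 47.7 and 48.6 CPM in PLA and 56.2 and 42.3 CPM in PLA4 (adjusted p = 0.0029, edgeR). The kinase genes Rps6ka5 (adjusted p = 0.00294) and Rps6ka1 (adjusted p = 0.00646) and the coactivator Mrtfa (adjusted p = 0.0105) also passed in edgeR.

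Of 18 genes known as AP-1 targets, 16 were tested and 8 differed among lines, close to the 52.9% of all genes. Sprr1a, a cornified envelope gene, was at 30.0 and 31.3 CPM in PL1, 181 and 190 CPM in PL12, 710 and 691 CPM in PLA and 127 and 170 CPM in PLA4 (adjusted p = 0.000325, edgeR), so PLA was highest and PL1 lowest. Ivl, encoding involucrin, was lowest in PL12 (6.73 and 5.72 CPM) and at 30.0 to 79.5 CPM elsewhere. Vegfa was highest in PLA (791 and 792 CPM) and Plau, encoding urokinase, in PL12 (246 and 260 CPM). In PL1, the targets Mmp3, Mmp9, Mmp10, Mmp13, Il6 and Hmox1 were among those over 2-fold higher in replicate 2, and Timp1 and Ivl were over 2-fold lower. Over all genes 9.39% were higher and 4.02% lower. Mmp3 and Il6 were each at 0.0115 CPM in replicate 1, below its floor of 0.0337 CPM, and at 2.74 and 10.9 CPM in replicate 2. None of the genes of these 4 lists passed in all 4 comparisons of a PLA with a PL line, against 1.99% of all genes.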

How the data were processed

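RNA of 8 libraries was made into cDNA with the SMARTer PCR kit and into libraries with Nextera XT, per the labels' protocols. The authors deposited expected counts and TPM per gene, per the file headers; FastQC, STAR, RSEM and DESeq2 with GRCm38 are named in the submitters' processing notes, without versions. The annotation release and the strand setting are not given in the sources used here. Of the expected counts, 14.2% were not whole and were rounded. Genes were filtered with filterByExpr (minimum count 10, minimum total 15), scaled by TMM and fitted in R 4.3.3 with the quasi-likelihood F test of edgeR 4.0.16 (limma 3.58.1 for the TPM alternative), with 1 mean per line, 4 residual degrees of freedom and Benjamini-Hochberg adjustment at 0.05. The same test was run on counts summed per line (18859 genes). DESeq2 1.42.0 and limma on log2(TPM + 1) were alternatives. The line and pair tests were checked on simulated counts with a change in PLA only and 1 spread per gene in all lines. The replicates here are less even than that, and the rule of 4 family comparisons was not checked in this way. TPM keeps no depth and was used for shares and levels between genes. Fold changes between libraries used CPM with 0.1 added. Positions are from GENCODE M21. All members are named, with the 4 genes of smallest p in each further list and, per member, the 2 nearest genes whose mean reached 5 CPM; genes listed by count were named after their values were seen. The members and lists were chosen with earlier results of these data known. A further gene of the target list is not reported here.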

Additional observations from a re-analysis of the deposited data

How the results depend on the processing

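The line test called 7 members, and 5 to 10 over 15 alternatives. None of the 27 called differences between pairs of lines changed sign, whereas 14 of the 33 others did. DESeq2 raised PL12 against PL1 from 3 to 5. Without replicate 1 of PL1 and 2 of PLA4, the counts were 7 (PL12 against PL1), 7 (PLA against PL1), 9 (PLA4 against PL1) and 7 (PLA4 against PL12); without replicate 2 of PL1 and 1 of PLA4 they were 8, 9, 8 and 10. The spread then comes from PL12 and PLA alone. Leaving out single libraries gave 0 to 5 for PL12 against PL1, 0 to 6 for PLA against PL1, 2 to 7 for PLA against PL12, 0 to 8 for PLA4 against PL1, 3 to 6 for PLA4 against PL12, 1 to 8 for PLA4 against PLA and 0 to 2 for all 4 family comparisons. At 1.5-fold, 7 members in PL1 and 5 in PLA4 differed between libraries.

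Replicate numbers showed no clear shared shift across lines: correlations of the difference between replicates 2 and 1 ran from -0.194 to 0.0148. With 1 such difference per line, these values cannot tell whether libraries were handled in batches. With a replicate block, PL12 against PL1 called 1 member, PLA4 against PL1 called 2, and 1 (Fosl1) was called in all 4 family comparisons. With crossed numbers, chosen after seeing the data, PLA4 against PL1 called 2 and PLA against PL12 called 5. With 2 libraries per line, the number of libraries limits these comparisons. Every member was above the floor of 3 counts in every library, the lowest being Fosl1 at 0.838 CPM in PLA4.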
